A study of Homo sapiens with 14 samples.

Results

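Intervals that span a gene start are the ChIP-seq intervals inside which the first base of a gene lies, here from STAT5 and BCL6 chromatin immunoprecipitation in DLD-1, an established line of human colorectal adenocarcinoma cells. A gene and interval pair was a member where the start of the gene (its lower coordinate on the plus strand, its upper coordinate on the minus strand) lay from the first to the last base of the interval. By this rule 11799 of the 172115 pairs in 4 lists were members, made of 11157 of 152412 distinct intervals. The activator STAT5 list gave 535 of its 15937 pairs, the inhibitor BCL6 list 45 of 1835, the control STAT5 list 5671 of 77245 and the control BCL6 list 5548 of 77098. The rule used coordinates only, so the values of the libraries and the overlap between antibodies played no part in the choice of members.

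Activator cells were transfected with the plasmid pEGFP-C1199Tiam1, which codes for a fragment of the RAC1 exchange factor TIAM1, and given vehicle; inhibitor cells received the same plasmid and 20 microM EHT 1864, a RAC inhibitor, for 16 h; control cells were transfected with an empty vector. The TIAM1 fragment was supplied by transient transfection, so cells that did not take up the plasmid were in the same dish. All cells were at passage 10 to 14, and the immunoprecipitation was done 20 h after transfection. The 4 lists hold 2 activator STAT5, 3 inhibitor BCL6, 2 control STAT5 and 2 control BCL6 libraries, 9 of the 14 libraries of the series; the other 5, activator BCL6 and inhibitor STAT5, were not analysed. The labels do not say whether libraries of a group came from separate cultures, so their spread may be technical.

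A gene start is where transcription of a gene begins, and the DNA around it, the core promoter, is where RNA polymerase II and the general transcription factors assemble. Many promoters of broadly used genes lie in CpG islands, stretches rich in G, C and the dinucleotide CG, while genes used in few tissues, such as olfactory receptors and keratin-associated proteins, often start in AT-rich DNA. STAT5 is a signal-dependent transcription factor best known as an activator, and BCL6 is a zinc finger repressor whose preferred DNA letters resemble those of STAT5.

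RefSeq promoters of 6 genes with a spanned start show a range of promoter DNA. FZD5 codes for a WNT receptor, TTC7A for a scaffold of the phosphatidylinositol kinase complex at the plasma membrane, ALKBH7 for a mitochondrial AlkB-family protein, CLNS1A for a chaperone of spliceosome assembly, and OR52A5 and OR6C74 for olfactory receptors. The sequences run from 250 bases before to 50 bases after the RefSeq start in GRCh38.p14, 5′ to 3′ on the strand of the gene. RefSeq starts need not be the Ensembl starts in GRCh37 that define the members, and no sequence of the intervals themselves was read. The printed bases may therefore lie partly or wholly outside the intervals. In FZD5 (chr2:207769857-207770156, minus strand), TTC7A (chr2:46915616-46915915, plus strand), ALKBH7 (chr19:6372544-6372843, plus strand) and OR52A5 (chr11:5138307-5138606, minus strand), shown because they run from CpG-rich to CpG-poor, capitals mark each CG dinucleotide, of which there are 38, 33, 17 and 2.
FZD5: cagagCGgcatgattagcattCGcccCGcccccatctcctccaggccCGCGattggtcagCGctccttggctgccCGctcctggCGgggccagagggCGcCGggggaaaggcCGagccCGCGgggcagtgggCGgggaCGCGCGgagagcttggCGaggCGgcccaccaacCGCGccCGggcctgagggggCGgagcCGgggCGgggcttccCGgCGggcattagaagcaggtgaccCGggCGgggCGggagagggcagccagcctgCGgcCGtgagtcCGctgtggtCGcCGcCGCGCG
TTC7A: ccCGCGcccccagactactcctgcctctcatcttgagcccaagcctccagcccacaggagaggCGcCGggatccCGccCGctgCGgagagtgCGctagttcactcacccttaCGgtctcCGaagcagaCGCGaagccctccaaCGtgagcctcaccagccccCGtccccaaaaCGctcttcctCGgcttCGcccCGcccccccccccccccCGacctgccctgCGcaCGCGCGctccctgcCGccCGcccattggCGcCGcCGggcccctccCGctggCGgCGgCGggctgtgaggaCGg
ALKBH7: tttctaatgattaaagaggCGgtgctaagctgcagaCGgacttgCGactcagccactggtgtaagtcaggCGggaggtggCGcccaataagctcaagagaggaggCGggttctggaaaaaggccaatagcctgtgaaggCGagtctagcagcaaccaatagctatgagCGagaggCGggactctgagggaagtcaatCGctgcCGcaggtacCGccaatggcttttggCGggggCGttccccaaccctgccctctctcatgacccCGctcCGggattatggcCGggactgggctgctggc
OR52A5: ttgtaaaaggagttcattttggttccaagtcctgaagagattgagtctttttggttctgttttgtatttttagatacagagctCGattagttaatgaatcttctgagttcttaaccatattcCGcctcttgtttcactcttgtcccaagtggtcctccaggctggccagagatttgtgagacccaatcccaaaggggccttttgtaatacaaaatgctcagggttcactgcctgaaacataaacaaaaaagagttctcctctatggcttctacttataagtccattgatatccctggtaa

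In CLNS1A (chr11:77637745-77638044, minus strand) and OR6C74 (chr12:55244359-55244658, plus strand) capitals mark the letters TTCNNNGAA, the general form of a STAT site. Both were chosen because their starts were spanned by an activator STAT5 and a control BCL6 interval and the letters are present. The letters lie at -78 bp in CLNS1A and -124 bp in OR6C74 relative to the RefSeq start. Relative to the Ensembl start, the activator STAT5 intervals run from -29 to 109 bp and from -38 to 87 bp. The letters were thus not shown to lie inside these intervals.
CLNS1A: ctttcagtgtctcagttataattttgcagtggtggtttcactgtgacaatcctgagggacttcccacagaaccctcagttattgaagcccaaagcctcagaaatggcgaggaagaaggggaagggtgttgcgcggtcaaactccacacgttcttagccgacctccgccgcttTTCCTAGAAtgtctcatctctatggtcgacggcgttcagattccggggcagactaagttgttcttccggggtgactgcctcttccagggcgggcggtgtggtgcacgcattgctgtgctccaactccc
OR6C74: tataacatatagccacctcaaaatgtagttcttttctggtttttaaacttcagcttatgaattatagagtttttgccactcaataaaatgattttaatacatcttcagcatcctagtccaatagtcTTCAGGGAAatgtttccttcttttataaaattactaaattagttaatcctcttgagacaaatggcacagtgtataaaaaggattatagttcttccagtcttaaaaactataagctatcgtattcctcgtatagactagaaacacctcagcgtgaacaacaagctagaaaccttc

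The lists hold intervals from 3000 bp upstream to 1000 bp downstream of 44178 gene starts. Each interval has a whole-number value for each library, a quantity that the file headers do not name and that was read as a count of reads. A control list holds an interval with a value of at least 2 in 1 library or both, and a treated list holds only intervals with a value in every library, so the numbers of intervals in treated and control lists do not compare occupancy. Control intervals were at least 250 bp wide, while treated intervals could be much narrower, and no interval of a treated list shared a base with the control list of the same antibody. Library depth is not known from the sources used here. Most values were at the minimum: among spanning intervals with a value, 42.9% to 71.0% per library had a value of 2.

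The share of intervals that span a gene start followed the width of the intervals. It was 3.67% in activator STAT5 (515 of 14047 distinct intervals, 95% Clopper-Pearson interval 3.36% to 3.99%) and 2.54% in inhibitor BCL6 (42 of 1652, 1.84% to 3.42%). It was 7.84% in control STAT5 (5357 of 68320, 7.64% to 8.05%) and 7.67% in control BCL6 (5243 of 68393, 7.47% to 7.87%). These intervals cover counting error only. Spanning intervals were wider than the others in each list: the median width was 208 against 139 bp in activator STAT5, 164.5 against 83 bp in inhibitor BCL6 and 311 against 304 bp in both control lists.

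With width set equal, the lists lay close together. Each interval was replaced by 142 bp around its midpoint, the median width of the activator STAT5 list, an alternative added after seeing the data. The spanning share was then 3.52% in activator STAT5 (3.22% to 3.83%), 2.72% in inhibitor BCL6 (1.99% to 3.63%), 3.43% in control STAT5 (3.30% to 3.57%) and 3.31% in control BCL6 (3.18% to 3.45%). An interval placed evenly over the 4001 positions of the window would span the start in proportion to its width. Members were 0.908 times that number of pairs in activator STAT5, 0.980 times in inhibitor BCL6, 0.897 times in control STAT5 and 0.881 times in control BCL6. The observed number was thus above that of even spread in no list. These ratios were given no interval, and that of inhibitor BCL6 rests on 45 pairs.

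**Figure D1:**
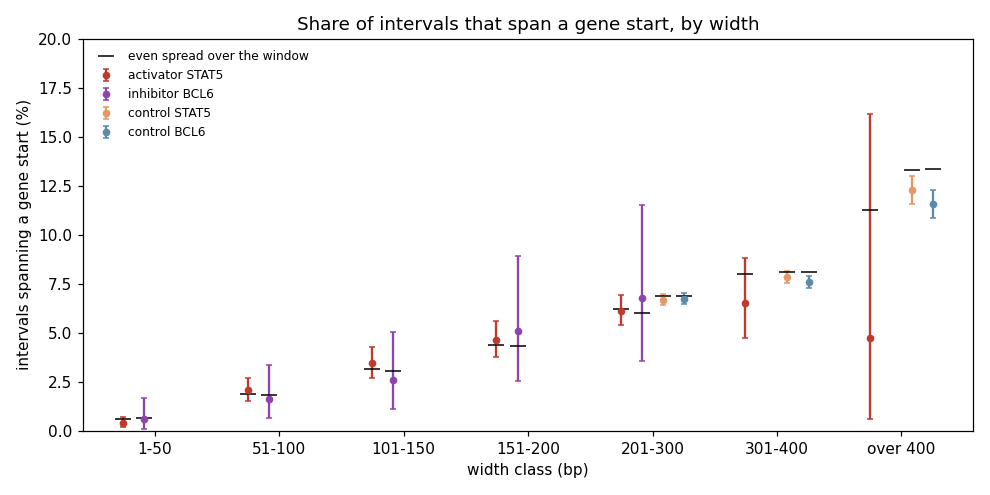
Percent of distinct intervals that span a gene start (vertical axis) by width class in bp (horizontal axis), in activator STAT5, inhibitor BCL6, control STAT5 and control BCL6. Points are shares, bars are 95% Clopper-Pearson intervals, and classes with fewer than 20 intervals are left out. Black dashes are the share that even spread over the window gives when each interval has 1 gene. Some intervals are paired with more genes (15937 pairs for 14047 activator STAT5 intervals), so the dashes are lower than even spread over all pairs. The activator STAT5 share climbs from 0.409% in the narrowest class to 6.12% in the class that ends at 300 bp, where the dash is at 6.20%.

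Within a width class the lists had similar shares. Of intervals wider than 200 and up to 300 bp, 6.12% spanned a start in activator STAT5 (235 of 3840) and 6.78% in inhibitor BCL6 (12 of 177). Logistic regression with 7 width classes left out each class held by 1 list alone. Against a control list only treated intervals wider than 200 bp therefore entered. By class these were 3840, 611 and 42 of the 14047 activator STAT5 intervals, and 177 and 10 of the 1652 inhibitor BCL6 intervals. The odds ratio was 0.884 for activator STAT5 over control STAT5 (n = 72813 intervals, 0.778 to 1.00, adjusted p = 0.229 by Wald tests with Benjamini-Hochberg adjustment over 4 list comparisons). In the class that ends at 300 bp control intervals began at 250 bp, so widths within it still differed. With a smooth curve of width the odds ratio was 1.01. That fit also took in activator STAT5 intervals of up to 200 bp, where no control interval lay, so 1.01 and 0.884 rest on different intervals. The odds ratio was 1.03 for inhibitor BCL6 over control BCL6 (n = 60632, 0.583 to 1.804, adjusted p = 0.931) and 1.02 for activator STAT5 over inhibitor BCL6 (n = 15657, 0.737 to 1.41, adjusted p = 0.931). Control STAT5 over control BCL6 gave 1.02 (n = 136713, 0.984 to 1.06, adjusted p = 0.504). These fits treat intervals as independent and cover counting error over intervals, not the spread between cultures.

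The control shares differed little between libraries. Of the intervals with a value in a library, 8.09% and 8.13% spanned a start in control STAT5, and 7.74% and 8.004% did so in control BCL6. Some intervals spanned more than 1 start, which can happen where genes overlap or diverge: 20 in activator STAT5 (3.88%), 3 in inhibitor BCL6 (7.14%), and 5.62% and 5.47% of the spanning intervals in control STAT5 and control BCL6, with up to 5 starts in each control list. A whole gene lay inside the interval in 56 activator STAT5, 5 inhibitor BCL6, 885 control STAT5 and 914 control BCL6 pairs. Of the spanning intervals, 3.30% in activator STAT5, 16.7% in inhibitor BCL6, 3.02% in control STAT5 and 3.19% in control BCL6 lay at 30 to 75 Mb of chromosome 2, a stretch dense in treated intervals. The same share among intervals that did not span a start was 4.52%, 9.07%, 2.59% and 2.89% in the same order of lists.

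Position by position, intervals were fewer over the starts of protein-coding genes than upstream of them. The number of intervals over the start was divided by the mean number over 16 positions from 2000 to 500 bp upstream of the same genes, a ratio that width affects alike above and below. Over all genes it was 0.869 in activator STAT5 (535 against a mean of 616, exact Poisson interval of the count 0.797 to 0.946), 0.942 in inhibitor BCL6 (45 against 47.75, 0.687 to 1.26), 0.874 in control STAT5 (0.851 to 0.897) and 0.850 in control BCL6 (0.828 to 0.873). Over protein-coding genes it was 0.691 in activator STAT5 (184 intervals over the start, 0.595 to 0.798), 0.564 in inhibitor BCL6 (11, 0.282 to 1.01), 0.720 in control STAT5 (1928, 0.688 to 0.753) and 0.651 in control BCL6 (1712, 0.620 to 0.682). Against 500 bp downstream the protein-coding ratio was 0.876 in activator STAT5, 0.647 in inhibitor BCL6, 0.757 in control STAT5 and 0.801 in control BCL6. Gene classes were compared after an earlier look at the data.

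Pseudogenes, genes without a symbol and small RNA genes had ratios near 1 or above it. Pseudogenes gave 1.06 in activator STAT5 (78 intervals over the start), 1.09 in inhibitor BCL6 (7), 0.981 in control STAT5 (851) and 1.00 in control BCL6 (886), each with an interval that holds 1. Against 500 bp downstream pseudogenes gave 1.10 in activator STAT5, 1.11 in control STAT5 and 1.16 in control BCL6. Genes without a symbol in the files gave 0.985, 1.17, 0.989 and 0.983 in the same order of lists. Long noncoding RNA genes stood below 1 in the control lists, at 0.828 in control STAT5 (191 intervals, 0.715 to 0.954) and 0.854 in control BCL6 (195, 0.739 to 0.983), and gave 0.921 in activator STAT5 (19, 0.555 to 1.44); against 500 bp downstream the control BCL6 value was 1.02. Small RNA genes gave 1.32 in activator STAT5 (18 intervals, 0.783 to 2.09), 1.10 in control STAT5 (136, 0.925 to 1.31) and 1.12 in control BCL6 (144, 0.944 to 1.32). By logistic regression with width classes, pairs of protein-coding genes spanned the start less often than pairs of pseudogenes in activator STAT5 (2.76% against 3.90%, n = 8643 pairs, odds ratio 0.694, 0.529 to 0.911, adjusted p = 0.0115). The odds ratio was 0.739 in control STAT5 (6.22% against 8.18%, n = 41409, adjusted p = 3.72e-12) and 0.666 in control BCL6 (5.73% against 8.36%, n = 40479, adjusted p = 2.39e-20). It was 0.452 in inhibitor BCL6, on 11 and 7 members, and did not pass (n = 923, 0.172 to 1.19, adjusted p = 0.109).

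**Figure D2:**
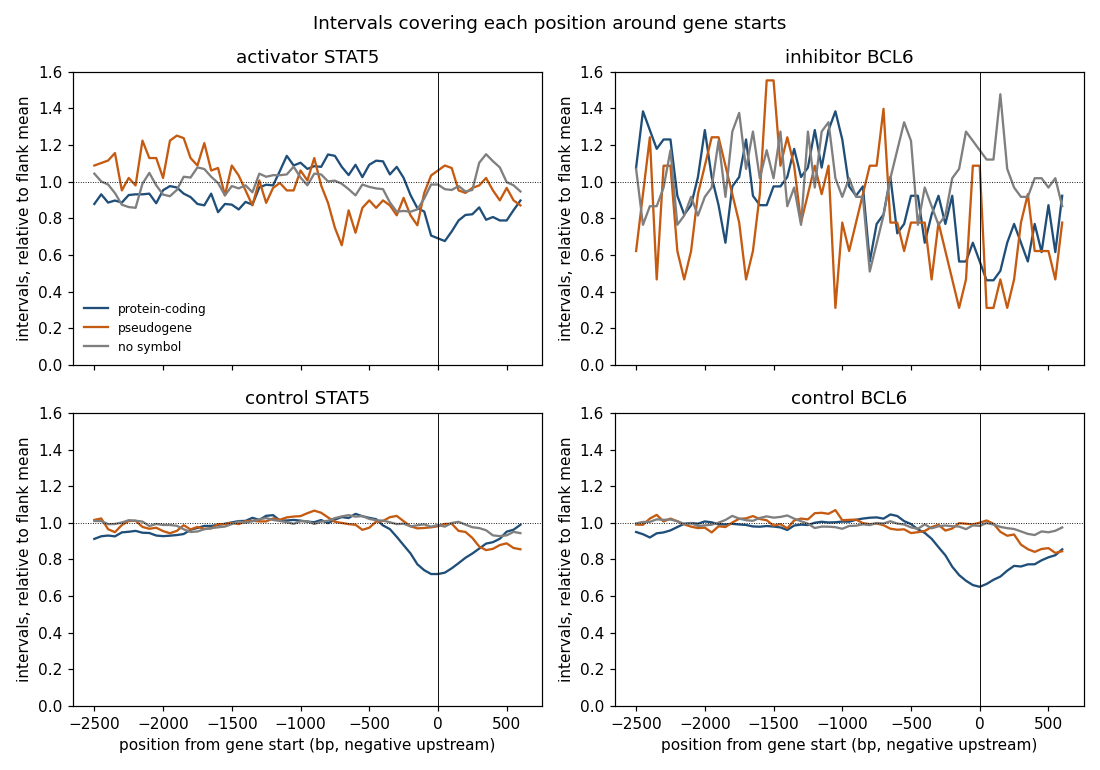
Number of intervals that cover each position around gene starts, divided by the mean over 2000 to 500 bp upstream (vertical axis), against distance from the start in bp (horizontal axis, negative upstream), in 1 panel for each list. Lines are protein-coding genes, pseudogenes and genes without a symbol; the protein-coding line is lowest at -50 and 0 bp in control STAT5 (0.720) and at 0 bp in control BCL6 (0.651), while the inhibitor BCL6 lines rest on few intervals.

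In the control lists the drop at protein-coding genes was deepest at or near the start. The lowest of the positions taken every 50 bp was 50 bp downstream in activator STAT5 (180 intervals, 0.676 of the flank), both 50 bp upstream and the start itself in control STAT5 (1928 each) and the start itself in control BCL6 (1712). At 600 bp downstream the control STAT5 line stood at 0.990 and the control BCL6 line at 0.855 of the flank. Pseudogenes reached their lowest point elsewhere, 350 bp downstream in control STAT5 (0.851) and 550 bp downstream in control BCL6 (0.836).

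The drop grew with the GC content of the promoter. Genes with a RefSeq promoter were split by GC over 300 bases into 4 bins of about equal size, with medians of 45.7%, 59%, 66.7% and 75%. The first listed promoter of each symbol was used, and its distance from the Ensembl start was not checked. The GC can therefore belong to another start of the gene. In activator STAT5 the ratio over the start was 1.03, 0.913, 0.580 and 0.298 from the lowest to the highest bin, on 56, 54, 34 and 19 intervals. In control STAT5 it was 0.954, 0.861, 0.759 and 0.393, and in control BCL6 0.925, 0.809, 0.535 and 0.411. The inhibitor BCL6 list had 9, 3, 1 and 0 intervals over the start from the lowest to the highest bin, against flank means of 3.44, 5.44, 3.88 and 4.38. Among protein-coding genes alone the highest bin gave 0.293 in activator STAT5, 0.401 in control STAT5 and 0.406 in control BCL6. Set against 500 bp downstream in place of the upstream flank, the drop over all genes was smaller, at 0.987 in activator STAT5, 0.938 in control STAT5 and 0.968 in control BCL6, and inhibitor BCL6 stood at 1.07. In the highest bin this flank gave 0.50 in activator STAT5, 0.509 in control STAT5 and 0.588 in control BCL6.

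Within each list the pairs of the highest GC bin spanned the start less often than those of the lowest. In activator STAT5 19 of 1338 pairs of the highest bin were members (1.42%), against 56 of 1482 in the lowest (3.78%), a width-adjusted odds ratio of 0.340 (n = 2307 pairs in width classes that hold a member, 0.200 to 0.577, adjusted p = 0.000116 over 11 fits). The odds ratio was 0.450 in control STAT5 (3.64% against 7.77%, n = 13520, adjusted p = 1.91e-22) and 0.476 in control BCL6 (3.83% against 7.79%, n = 13125, adjusted p = 9.84e-20). In inhibitor BCL6 0 of 149 pairs of the highest bin and 9 of 176 of the lowest were members, and the odds ratio could not be fitted. An approximate upper limit for the 0, with 3 members in its place, was 2.01% and is not an exact interval. Bin 3 against bin 1 gave 0.578 in activator STAT5 (n = 2973, adjusted p = 0.0167), 0.106 in inhibitor BCL6 (1 member, n = 337, adjusted p = 0.0405), 0.835 in control STAT5 (n = 14046, adjusted p = 0.00954) and 0.591 in control BCL6 (n = 13671, adjusted p = 1.63e-12). Without the first control STAT5 library the bin 3 odds ratio in control STAT5 was 0.916 and no longer passed. These fits were added after seeing the data, and the recovery of GC-rich DNA in library preparation and sequencing, which would need input libraries, was not tested.

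**Figure D3:**
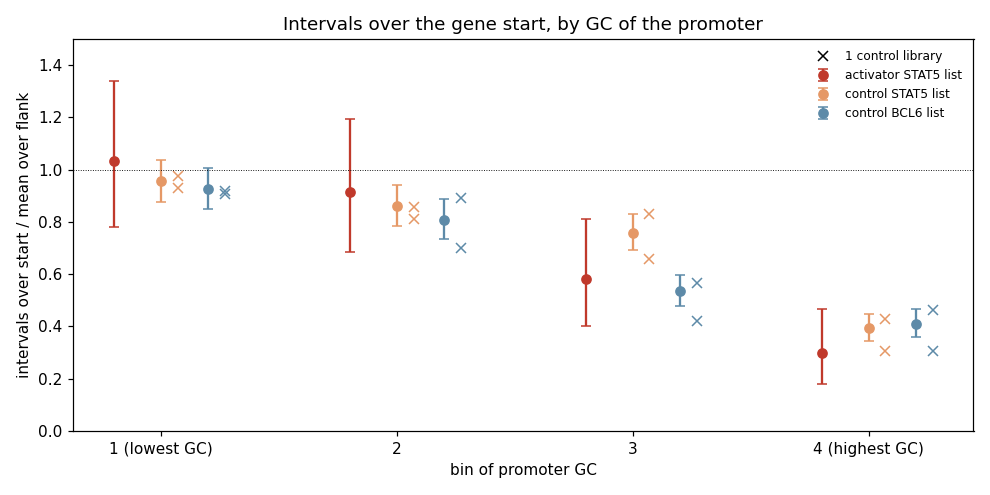
Number of intervals over the gene start divided by the mean over the upstream flank (vertical axis) by bin of promoter GC, low to high (horizontal axis), in activator STAT5, control STAT5 and control BCL6. Points are lists with exact 95% Poisson intervals, crosses are single control libraries; in the highest bin the ratios are 0.298, 0.393 and 0.411.

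Single libraries of the control lists kept this order. In the highest GC bin the ratio was 0.306 and 0.427 for the libraries of control STAT5, against 0.305 and 0.463 for those of control BCL6. The libraries of an antibody thus differed from each other more than the antibodies did. In bin 3 control STAT5 had 0.656 and 0.829, against 0.422 and 0.567 in control BCL6. In that bin 458 of 6977 control STAT5 pairs spanned the start (6.56%) against 314 of 6658 control BCL6 pairs (4.72%), an odds ratio of 1.41 (n = 13635, 1.22 to 1.64, adjusted p = 0.000117 over 24 fits by gene class). The 2 libraries of each antibody did not overlap there, but 2 against 2 cannot give an exact two-sided permutation p below 0.333. Over protein-coding genes the ratio was 0.654 and 0.745 in control STAT5 against 0.571 and 0.678 in control BCL6, which overlap.

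Spanning intervals did not carry higher or lower values than the rest of their list once width was taken into account. In activator STAT5 the mean value was 2.67 ± 1.19 and 3.13 ± 1.70 in the 2 libraries over spanning intervals, against 2.68 ± 1.90 and 3.15 ± 3.53 over other intervals (SD over intervals). In inhibitor BCL6 it was 2.45 ± 0.63, 2.67 ± 1.18 and 3.64 ± 2.16 in the 3 libraries over 42 spanning intervals, against 2.66 ± 1.63, 2.79 ± 2.38 and 3.35 ± 3.53 over the others. The highest value of a spanning interval was 12 in activator STAT5 and 10 in inhibitor BCL6, against 182 and 83 among the far more numerous other intervals of those lists. In the control lists it was 13 in control STAT5 and 22 in control BCL6, against 11 and 18 among other intervals. None of 11 fits of a value of at least 3, or of a value in both control libraries, passed Benjamini-Hochberg adjustment (0 of 11, adjusted p from 0.935 to 0.937), and 0 were under an unadjusted Wald p of 0.05. Among intervals near protein-coding genes alone, a value of at least 3 in the first control BCL6 library was less frequent in spanning intervals (odds ratio 0.785, outside the adjusted family), an alternative added after seeing the data.

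The share with a value in both control libraries showed how much width mattered. It was 13.1% of spanning against 9.02% of other control STAT5 intervals, and 12.3% against 8.94% in control BCL6. With width classes the odds ratios were 1.00 (0.904 to 1.12) and 0.973 (0.872 to 1.09). Among control STAT5 intervals over 400 bp 54.9% of spanning and 55.4% of other intervals had both values, and among those in the class that ends at 300 bp 0.523% and 0.468%. In control BCL6 the same classes gave 55.2% against 55.8% and 0.378% against 0.400%.

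Overlap with the other antibody was no more frequent at gene starts than elsewhere near genes. Of the spanning activator STAT5 intervals 132 of 515 shared at least 1 bp with a control BCL6 interval (25.6%), the same 25.6% as other activator STAT5 intervals (width-adjusted odds ratio 0.882, n = 14047, 0.720 to 1.08, adjusted p = 0.530 over 6 fits). Of the spanning inhibitor BCL6 intervals 7 of 42 shared a base with a control STAT5 interval (16.7%), against 23.9% of the others (odds ratio 0.504, n = 1652, 0.220 to 1.16, adjusted p = 0.530). Control STAT5 intervals overlapped control BCL6 intervals in 30.5% of spanning and 30.1% of other cases (odds ratio 0.968, 0.910 to 1.03). The reverse overlap stood at 30.4% and 30.1% (0.979, 0.921 to 1.04). Between the treated lists 3 of 515 spanning activator STAT5 intervals touched an inhibitor BCL6 interval, and 1 of 42 the other way. When at least 0.5 of the shorter interval had to be shared, the odds ratio of the spanning activator STAT5 intervals was 0.673 (n = 14047, unadjusted p = 0.00254).

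Treated intervals often lay directly beside a control interval of the same antibody, with no base between them. This held for 71 of 515 spanning activator STAT5 intervals (13.8%) against 19.1% of the others, with a width-adjusted odds ratio of 1.00 (0.771 to 1.30). It held for 8 of 42 spanning inhibitor BCL6 intervals (19.0%) against 14.2% of the others (2.04, n = 1642, 0.909 to 4.59, unadjusted p = 0.0839).

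**Figure D4:**
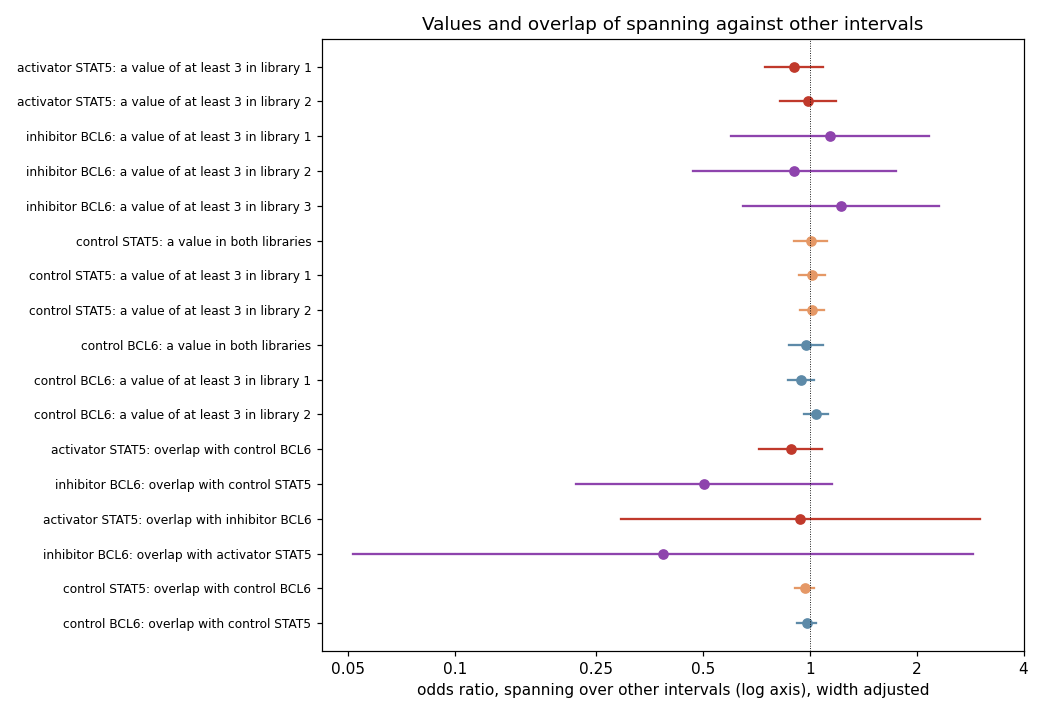
Width-adjusted odds ratio, spanning over other intervals (horizontal log axis), for a value of at least 3 in each library, a value in both control libraries, and overlap with the other antibody (rows). Points are odds ratios and bars 95% intervals, coloured by list. Every bar crosses 1, and the widest are those of overlap between activator STAT5 and inhibitor BCL6, in either direction.

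The members belonged to 10798 of the 44178 gene starts. An activator STAT5 interval spanned 1.21% of the starts, an inhibitor BCL6 interval 0.102%, a control STAT5 interval 12.8% and a control BCL6 interval 12.6%. Among the 17222 protein-coding starts the shares were 1.07%, 0.0639%, 11.2% and 9.94% in the same order. Genes without a symbol made up 43.4% of the spanned starts in activator STAT5, 51.1% in inhibitor BCL6, 44.1% in control STAT5 and 45.9% in control BCL6, and protein-coding genes 34.4%, 24.4%, 34.0% and 30.9%. Over all 44178 starts, spanned or not, 17841 had no symbol and 17222 were protein-coding. No start was spanned in more than 2 lists, and 1001 were spanned in 2. Because the lists of an antibody share no base, a start could be spanned in at most 1 STAT5 and 1 BCL6 list.

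A start held by activator STAT5 and by control BCL6 is the arrangement that the series title calls a switch. It was found at 76 gene starts, 14.2% of the 535 spanned in activator STAT5 and 1.37% of the 5548 spanned in control BCL6, beside the 12.6% of all starts that control BCL6 spanned. For protein-coding genes it was 27 of 184 (14.7%), beside 9.94%. The arrangement of inhibitor BCL6 on control STAT5 was found at 7 starts (15.6% of 45), beside 12.8% of all starts. Both control antibodies spanned 918 starts, 16.2% of the control STAT5 and 16.5% of the control BCL6 starts. The background shares over all starts include those spanned by the control list of the treated antibody. A treated interval could not span these, so the backgrounds are not matched to the treated starts. No start was spanned by activator STAT5 and inhibitor BCL6 together. Inhibitor BCL6 spanned only 0.102% of all starts, so few that this lack of overlap says little.

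Among these 76 starts the protein-coding genes first by their lowest value were GNL2, ZNF251, NAGLU and TTC7A, all given in GRCh37. GNL2, which codes for a nucleolar GTPase of large ribosomal subunit assembly, had values of 5 and 6 in activator STAT5 at chr1:38061349-38061536, against 2 and 0 for control BCL6 at chr1:38061265-38061545. Its start is the last base of the activator STAT5 interval, so a shift of 1 bp would end the membership. ZNF251, a zinc finger gene, had 3 and 6 in activator STAT5, against 3 and 0 for control BCL6. Its control BCL6 interval reached 3 bp past the start. NAGLU, the lysosomal enzyme that trims heparan sulfate, had 4 and 3 in activator STAT5 at chr17:40687791-40687983, against 2 and 0 for control BCL6. TTC7A had 2 and 11 in activator STAT5 at chr2:47143109-47143368, all 260 bp of it inside a control BCL6 interval of 569 bp with 2 and 2. Of these 4 genes TTC7A alone had a value in both control BCL6 libraries.

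The other starts named by the same order were IGF2BP2-AS1, an antisense RNA gene that had 5 and 5 in activator STAT5, against 2 and 0 for control BCL6, and 5 pseudogenes. Reads of pseudogenes and repeat families can belong to near-identical copies, so these places are uncertain. RNA5SP190, a 5S RNA pseudogene, had 4 and 4 in activator STAT5, against 0 and 2 for control BCL6. RPL5P24, a ribosomal protein pseudogene, had 4 and 3 in activator STAT5, against 2 and 4 for control BCL6. OR10R1P, EEF1DP5 and KRT18P28 had lowest activator STAT5 values of 3, 3 and 2, each with a value in 1 control BCL6 library. Of the 10 starts, 2 thus had a value in both control BCL6 libraries.

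CLNS1A and OR6C74, printed above, were also among the 76. CLNS1A had 2 and 6 in activator STAT5, against 2 and 2 for control BCL6, whose interval at chr11:77348843-77349341 ran from -490 to 8 bp relative to the start. OR6C74 had 2 and 4 in activator STAT5 at chr12:55640945-55641070, against 0 and 2 for control BCL6. KRTAP4-2, a hair keratin-associated protein gene with the same letters in its promoter, had 2 and 7 in activator STAT5, against 0 and 4 for control BCL6.

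Inhibitor BCL6 on control STAT5 gave 2 starts with a symbol. ALKBH7 had 2, 5 and 6 in the 3 inhibitor BCL6 libraries at chr19:6372230-6372500, and 2 and 0 in the control STAT5 libraries at chr19:6372236-6372535. The U6 pseudogene RNU6-205P had 3, 2 and 2 in inhibitor BCL6 and 0 and 2 in control STAT5. The highest inhibitor BCL6 members by lowest value and sum were ALKBH7, the ribosomal pseudogene RPL5P11 (2, 2 and 8), SNORA70B (2, 4 and 5), a small nucleolar RNA, SNUPN (4, 2 and 5), which codes for the import adaptor of spliceosomal particles, and IL1F10 (3, 2 and 4), an interleukin-1 family cytokine. In each of the 5 the lowest library had a value of 2.

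In activator STAT5 the first members by the same order were RNU5E-1, a U5 spliceosomal RNA gene with 5 and 9, MRPL4, a mitochondrial ribosomal protein gene with 5 and 7, GNL2, IGF2BP2-AS1 and RN7SL395P, a 7SL RNA pseudogene with 4 and 10. The MRPL4 interval, chr19:10362444-10362875, is 432 bp wide and runs from -197 to 234 bp relative to the start. RNU5E-1 and RN7SL395P belong to repeated families and are uncertain.

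Starts with a value in all 4 control libraries numbered 28, of which 6 were protein-coding. TRIM56, a ubiquitin ligase of antiviral signalling, had 3 and 5 in control STAT5 at chr7:100728697-100729214 and 2 and 6 in control BCL6, with 518 shared bp. OR52A5 had 3 and 5 in control STAT5 and 4 and 2 in control BCL6. DPY30, a core subunit of the histone H3 lysine 4 methyltransferase complexes, and HOXD11, a homeobox gene of limb patterning, had 2 in each of the 4 libraries. The first by lowest value were pseudogenes: PSAT1P2 had 5 and 8 in control STAT5 and 4 and 4 in control BCL6, and RNU6-310P 4 and 3 in control STAT5 and 3 and 4 in control BCL6. KRT18P59, RNU6-112P, RNU6-409P and TPT1P3, all pseudogenes as well, had a lowest value of 2.

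The leading control STAT5 members were HIST1H2BD, a histone H2B gene with 10 and 5, HSPA6, an inducible HSP70 gene with 9 and 5, PSAT1P2, ETS2, an ETS-family transcription factor gene with 5 and 6, and NDC1, a nuclear pore membrane protein gene with 6 and 5. Histone and HSP70 genes have close copies, so their reads are uncertain. The leading control BCL6 members were the pseudogene RPLP0P2 with 4 and 6, FGF12, a fibroblast growth factor family gene with 5 and 4, LINC01349, a long noncoding RNA gene with 4 and 5, COL19A1, a collagen gene with 4 and 4, and HSP90B1, the HSP90 chaperone of the endoplasmic reticulum, also with 4 and 4. All 10 intervals were wide, from 579 bp at HSPA6 to 1089 bp at RPLP0P2, beside a median of 311 bp for spanning control intervals.

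Across the 19 gene lists looked at, the starts of MDM4, CDK7, CCNB2, FZD5 and VIL1 were spanned by a treated interval, each in activator STAT5. MDM4, an inhibitor of p53, had 2 and 5 at chr1:204485507-204485558. CDK7, the kinase of TFIIH, had 2 and 3, and CCNB2, a mitotic cyclin, 2 and 4. FZD5 had 3 and 6 at chr2:208634030-208634362, and VIL1, which codes for the epithelial protein villin, 2 and 2. FZD5 was thus the only one of these 5 with at least 3 in both libraries. None of the 18 STAT5 target genes and none of the 22 BCL6 target genes found in the lists had a start spanned by a treated interval, beside 1.07% of protein-coding starts in activator STAT5 and 0.0639% in inhibitor BCL6, shares at which lists of this size give counts near 0.

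Control intervals spanned the starts of list members at shares on both sides of the protein-coding background of 11.2% in control STAT5 and 9.94% in control BCL6. STAT5 target genes were spanned in 2 of 18 cases by control STAT5 and 4 of 18 by control BCL6, and BCL6 target genes in 5 of 22 and 3 of 22. Homologous recombination and Fanconi genes were spanned in 8 of 30 cases by control STAT5 and 6 of 30 by control BCL6. MUS81, a structure-specific nuclease, was spanned in both lists and had 2 and 0 in control STAT5 and 0 and 7 in control BCL6. Damage signalling genes were spanned in 7 of 36 cases by control STAT5 and 0 of 36 by control BCL6. They included the checkpoint kinase gene CHEK2 (0 and 2), the end-resection gene RAD50 (0 and 2), the replication fork gene TIMELESS (0 and 4) and the BRCA1-A complex gene UIMC1 (2 and 0), and no gene of the 4 had a value in both libraries. These repair genes were named after their values were seen.

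The remaining lists stayed at small counts. By control STAT5 and control BCL6, JAK-STAT genes were spanned in 3 and 4 of 33 cases, cell cycle genes in 7 and 6 of 43, RAC1 and PAK pathway genes in 2 and 1 of 38, and WNT pathway genes in 1 and 0 of 46. Cytosolic tRNA synthetases were spanned in 4 and 1 of 16 cases, proteasome subunits in 4 and 1 of 30, general transcription factors in 2 and 5 of 30, and BCL6 corepressors and deacetylases in 1 and 0 of 24. Base excision repair gave 1 and 2 of 23, nucleotide excision repair 3 and 2 of 20, mismatch repair 0 and 0 of 8, and end joining 0 and 1 of 9. Among markers of the labelled tissue and of other cells, colon epithelium genes had 1 and 3 of 19, B cell markers 2 and 1 of 12, and fibroblast and endothelial markers 1 and 3 of 13. An interval over a start does not measure expression, so these counts do not check the cell type.

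The promoters of spanned genes were poorer in G and C than those of genes that were listed and not spanned. The median GC was 58% over 163 promoters in activator STAT5, 47.7% over 13 in inhibitor BCL6, 60.3% over 1722 in control STAT5 and 58.7% over 1536 in control BCL6, against 63.7% over 11884 promoters of listed genes that no interval spanned. The median number of CG dinucleotides was 17, 3, 19 and 16 in the same order of lists, against 23. The letters TTCNNNGAA, which read alike on both strands, were in 12.3% of the activator STAT5 promoters (20), 15.4% of the inhibitor BCL6 promoters (2), 8.48% of the control STAT5 and 8.72% of the control BCL6 promoters, against 6.65% of those not spanned and 7.88% of all 27305 promoters of the table. The stricter letters TTCCTAGAA, searched on both strands and always part of the former, were in 2 activator STAT5, 0 inhibitor BCL6, 5 control STAT5 and 12 control BCL6 promoters, and in 0.403% of all promoters. These letters are AT-rich and GC differed between the sets, so no test was made of them.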

How the data were processed

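ChIP-seq intervals of 9 libraries in DLD-1 cells were read from 4 lists. The submitters' processing notes name CASAVA 1.8.2, Bowtie 0.12.7 and the build GRCh37; how peaks were called is not stated there. The authors' deposited values are whole numbers per interval and library, read as counts; the file headers do not name the quantity. The deposited tables also hold each interval's width and its distance to an Ensembl gene, and 2 further lists of shared intervals were not used. Each column was tied to its sample by the condition and number in its name; 2 lists named after a treatment hold control libraries and are called control here.

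Each distinct interval was counted once, except where interval and gene pairs are named. Odds ratios are from logistic regression in statsmodels 0.14.6 (Python 3.11.15) with 7 width classes, two-sided Wald tests and Benjamini-Hochberg adjustment at 0.05, tested on simulated data. Width classes in which the outcome or the compared group did not vary were left out of a fit. Exact Clopper-Pearson and Poisson intervals are at 95%. The alternatives were a smooth curve of width, stricter values, isolated gene starts, another flank, pairs, larger overlap and leaving out each control library. Symbols and promoters came from RefSeq GRCh38.p14, another build than the files', used for names, gene types and sequence only: 26170 of 26337 starts with a symbol matched and 15075 had a promoter. Named genes were those first by lowest library value, then by sum: 10 for each pair of lists and for all 4 control libraries, 5 for each list, and gene list members spanned by a treated interval, of which 1 is not reported here. The members and gene lists were chosen with earlier results of these data known. Library depth is not given, so the precision rests on the number of intervals alone.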

Additional observations from a re-analysis of the deposited data

Results flagged for a closer look

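Promoter GC bin 3 against bin 1, of 4 from low to high, differed between the control antibodies by a test of the difference itself. The odds ratio of spanning a start was 0.835 in control STAT5 and 0.591 in control BCL6, a ratio of 1.41 (n = 27717 pairs, 1.16 to 1.71, adjusted p = 0.00316 by a Wald test of the interaction, over 7 such differences). The same difference for the highest bin was 0.944 (0.756 to 1.18) and did not pass. Without the second control STAT5 library the ratio was 1.22 (0.970 to 1.54) and did not pass, and without any other single control library it was 1.33 to 1.74. The test was added after seeing the data and treats pairs as independent.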

How the results depend on the processing

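The call of each list comparison, value and overlap fit was kept under most alternatives, and the highest GC bin against the lowest kept its direction and passed under every one run in the 3 lists fitted. No paired analysis was possible because the replicate numbers were given in accession order and pair no samples. Counted as pairs, the spanning share was 3.36% in activator STAT5, 7.34% in control STAT5 and 7.20% in control BCL6. With the start at least 10 bp inside, it was 3.13%, 7.38% and 7.18%. With a value of at least 3 in 1 library it was 9.05% in control STAT5 and 8.60% in control BCL6, with values in both libraries 10.97% and 10.2%. With 142 bp around the midpoint it was 3.43% and 3.31%. Leaving out a library gave 8.09% to 8.13% in control STAT5 and 7.74% to 8.004% in control BCL6.

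For activator STAT5 over control STAT5 the odds ratio of spanning was 1.01 with the smooth curve of width, over intervals of all widths, and 0.860 without intervals touching a control interval. It was 0.751 for protein-coding genes, 1.07 in GC bin 1 and 0.538 in bin 3. The values 0.860, 0.751 and 0.538 passed unadjusted. For activator STAT5 over inhibitor BCL6 it was 0.999 with the curve, 0.981 with values of at least 3 and 0.450 in bin 1, which passed unadjusted. For control STAT5 over control BCL6 it was 1.09 for protein-coding genes (passing unadjusted), 0.995, 1.41 (passing) and 0.943 in bins 1, 3 and 4, and 1.01 to 1.05 without a library, passing unadjusted without the second control BCL6 library.

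Against a flank 500 bp downstream, the ratio over the start was 0.987 in activator STAT5, 0.938 in control STAT5 and 0.968 in control BCL6, and 1.02 for control BCL6 at lncRNA genes. With values of at least 3 it was 0.849 in control STAT5 and 0.790 in control BCL6; summed values of the first control BCL6 library gave 0.806, and leaving out a library 0.819 to 0.853. GC bin 3 against bin 1 did not pass with values of at least 3 (0.652 in activator STAT5, 0.1195 in inhibitor BCL6, 0.812 in control STAT5), at isolated starts (0.153 in inhibitor BCL6, 0.880 in control STAT5), or, in control STAT5, without its first library; leaving out a library gave 0.724 to 0.916 there, and it passed without the second. Its difference between control antibodies was 1.22 to 1.74 without a library. Protein-coding genes against pseudogenes in activator STAT5 gave 0.755 with values of at least 3.

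For a value of at least 3, spanning over other intervals, the curve gave 0.975 and 0.973 for the libraries of control STAT5, against 0.904 (passing unadjusted) and 1.00 for those of control BCL6. Near protein-coding genes it was 1.28 in the second activator STAT5 library, 0.869 in the first control STAT5 library and 0.785 in the first control BCL6 library. Against others within 1000 bp it was 1.03 in the second inhibitor BCL6 library, 0.993 in the second control STAT5 library and 0.997 in the second control BCL6 library. For both control values it was 0.922 (curve) and 0.963 (protein-coding) in control STAT5, and 1.01 (others within 1000 bp) in control BCL6. Overlap over at least 0.5 of the shorter interval gave 0.673 for activator STAT5 on control BCL6 and 1.22 on inhibitor BCL6. With values of at least 3, overlap gave 1.01 for control STAT5 and 1.13 for control BCL6, and without a library 0.970 to 1.01 for control BCL6. The spanned starts numbered 184, 11, 1928 and 1712 with protein-coding genes only, and 1917 in control STAT5 and 1808 in control BCL6 with values of at least 3. The causes were not tested.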
